A study of Mus musculus with 6 samples.

Results

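The genes described here are the 7 ligands Hbegf, Areg, Ereg, Btc, Tgfa, Epgn and Nrg1 of the epidermal growth factor (EGF) family and the 3 receptors Egfr, Erbb2 and Erbb3 of the ERBB family. They were taken by gene symbol from the 54752 genes of an RNA-seq count table, all 10 were found, and 9 of the 10 had enough reads to be tested. The cells were NIH/3T3, a line of mouse embryonic fibroblasts, with 2 libraries in each of 3 groups. The vehicle group received PBS, the TGF-β1 + DMSO group received TGF-β1 at 1 ng/ml in the presence of DMSO, and the TGF-β1 + BI6727 group received TGF-β1 at 1 ng/ml and BI6727, an inhibitor of polo-like kinase 1, at 5 μM. All 3 groups were kept for 72 h. Because the vehicle group had no DMSO, the effects of TGF-β1 and of DMSO cannot be told apart in its comparisons. In TGF-β1 + BI6727 against vehicle, the effects of TGF-β1 and of BI6727 cannot be told apart either. The labels of the TGF-β1 + BI6727 group do not name DMSO.

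Ligands of the EGF family are made as precursors that span the cell membrane, and proteases of the ADAM family cut them free. The released ligands bind receptor tyrosine kinases: HB-EGF (Hbegf), epiregulin (Ereg) and betacellulin (Btc) bind EGFR and ERBB4, amphiregulin (Areg), TGF-α (Tgfa) and epigen (Epgn) bind EGFR, and neuregulin (Nrg1) binds ERBB3 and ERBB4. The receptors then form dimers and signal to the MAPK and PI3K pathways. ERBB2 has no known ligand of its own and acts as a dimer partner, and ERBB3 has an impaired kinase.

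Hbegf was the only member that rose with TGF-β1 + DMSO, 8.37-fold over vehicle, past the limits set for a call (a fold over 2 and a p-value, adjusted by Benjamini-Hochberg, under 0.01). Unless an alternative setting is named, the adjusted p-values in the text are those of edgeR's quasi-likelihood test over all 17936 genes tested. Ereg and Erbb2 led the ligands and the receptors in the vehicle group, and Tgfa had no read in any library. None of the 9 tested members passed these limits between TGF-β1 + BI6727 and TGF-β1 + DMSO.

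The libraries held between 18362378 and 24452153 counts on genes, so that 3 counts, the floor used here, came to between 0.123 and 0.163 CPM, the count of a gene scaled to a common library total. The replicates of the TGF-β1 + DMSO group stood further apart than those of the other groups: the SD across genes of their log2 difference was 0.381, against 0.167 for vehicle and 0.155 for TGF-β1 + BI6727. The differences of the members between TGF-β1 + DMSO and vehicle are therefore also given with each of the TGF-β1 + DMSO libraries left out. The labels number the replicates and do not say that they came from separate cultures, so the p-values measure the spread between these libraries, which may be technical. All 8 fibroblast markers listed (such as Col1a1 and Vim) had reads in every group, with a summed level of 6080 to 7761 CPM. Of these, only Pdgfra fell past the limits for a call with TGF-β1 + DMSO, by 1.85 on the log2 scale (edgeR adjusted p = 4.12e-04). The 2 groups did not overlap in 2 markers that were higher and 5 that were lower, and in 56.4% of all genes tested. The median log2 fold change of the 8 markers was -0.69. Against vehicle, 3 fell past the limits with TGF-β1 + BI6727 (Col1a2, Pdgfra and Pdgfrb), where 3.13% of all genes tested fell. The summed level of 8 epithelial markers was 0.352 to 0.492 CPM with vehicle, 1.98 to 2.33 CPM with TGF-β1 + DMSO and 0.940 to 2.03 CPM with TGF-β1 + BI6727, with Krt5 and Krt18 at 0. Krt14 was the only gene of that list called with TGF-β1 + DMSO, from 0.151 and 0.179 CPM to 1.71 and 1.79 CPM. Without a call, Cldn4 went from 0 and 0 reads to 6 and 2, Krt8 from 0 and 0 to 2 and 2, and Cdh1 from 4 and 7 to 4 and 0. The 4 endothelial markers summed to 0.302 to 0.895 CPM with vehicle and 1.98 to 3.71 CPM with TGF-β1, with Kdr at 0, and the 5 immune markers to 4.13 to 5.50 CPM, with Adgre1 at 0. The part of these low marker levels in the results below was not tested. In bulk RNA, fewer cells that express a gene and less RNA per cell cannot be told apart.

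Members of the family lie on several chromosomes of the mm10 genome, but 4 of the ligands lie together. Epgn (chromosome 5, 91027464 to 91035215, plus strand), Ereg (91074622 to 91093646, plus strand), Areg (91139599 to 91148432, plus strand) and Btc (91357261 to 91402994, minus strand) span 375.5 kb of chromosome 5, with 3 other annotated genes between them. The levels of these neighbours were far apart: Ereg had 7458 reads and Btc 2030 reads over the 6 libraries, while Areg had 67 and Epgn had 39. Gm19610, on the strand opposite to Ereg, had 614 reads, and its exons cover 3.42% of the exonic length of Ereg. The strand setting of the counting was not stated, so reads in that stretch cannot be assigned.

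The sequences before the start sites of 3 of these neighbours are shown to set the low Epgn and Areg beside the expressed Btc, and those of Egfr and Erbb2 to set a receptor with few reads beside the highest. RefSeq sequences of GRCm38.p6 were found for 6 of the 10 members, the sixth being Tgfa. None was found for Hbegf, Ereg, Nrg1 or Erbb3, so Ereg, the ligand of the cluster with the most reads, is not shown. Each is read 5′ to 3′ along the strand of its gene and stops before the start of the gene in the count table, and capitals mark a TATA box (TATAAA) or an Sp1 box (GGGCGG) on either strand.
Epgn (chr5:91027267-91027463, plus strand): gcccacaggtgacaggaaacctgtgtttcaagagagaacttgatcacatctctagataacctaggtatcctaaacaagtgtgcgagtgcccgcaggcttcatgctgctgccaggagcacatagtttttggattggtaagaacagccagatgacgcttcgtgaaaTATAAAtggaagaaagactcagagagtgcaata
Areg (chr5:91139349-91139598, plus strand): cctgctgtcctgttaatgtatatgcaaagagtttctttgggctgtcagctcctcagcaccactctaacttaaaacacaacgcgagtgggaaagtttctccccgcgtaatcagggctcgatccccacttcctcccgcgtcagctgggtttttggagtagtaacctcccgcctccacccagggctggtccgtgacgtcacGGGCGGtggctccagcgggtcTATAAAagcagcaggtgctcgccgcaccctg
Btc (chr5:91402995-91403244, minus strand): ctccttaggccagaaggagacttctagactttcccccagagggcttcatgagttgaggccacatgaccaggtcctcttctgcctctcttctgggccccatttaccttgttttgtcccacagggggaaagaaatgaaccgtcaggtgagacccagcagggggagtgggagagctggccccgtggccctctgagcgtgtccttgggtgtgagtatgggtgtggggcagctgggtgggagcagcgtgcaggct
Egfr (chr11:16751953-16752202, plus strand): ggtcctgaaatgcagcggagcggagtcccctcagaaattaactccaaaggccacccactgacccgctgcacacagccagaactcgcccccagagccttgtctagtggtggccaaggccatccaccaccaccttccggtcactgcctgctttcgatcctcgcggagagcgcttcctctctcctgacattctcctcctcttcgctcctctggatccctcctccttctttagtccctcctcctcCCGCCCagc
Erbb2 (chr11:98412234-98412469, plus strand): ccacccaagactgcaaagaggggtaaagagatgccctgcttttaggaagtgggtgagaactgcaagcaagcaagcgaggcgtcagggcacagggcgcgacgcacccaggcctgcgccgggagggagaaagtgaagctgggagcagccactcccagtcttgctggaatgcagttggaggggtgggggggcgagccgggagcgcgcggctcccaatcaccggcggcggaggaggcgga

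Epgn and Areg, the ligands of the cluster with few reads, each had a TATA box, and none was found in the sequence of Btc. Its first base lay 33 and 31 bases before the start of the gene in the count table. For Epgn the start in RefSeq lies further into the gene, and the TATA box lay 86 bases before that start. TATAAA was present in 12.4% of the 32851 RefSeq windows of 250 bases. Areg had an Sp1 box as well, and Egfr had 1 that ended near its start, while none was found for Erbb2. GGGCGG was present in 32.7% of the windows. In the full 250 bases, the sequence of Areg held 15 CpG and that of Erbb2 16, against 4 for Btc, 5 for Epgn and 11 for Egfr, where the median window held 6. Neither the AP-1 letters TGANTCA (6.75% of windows) nor the SMAD letters CAGACA (17.1% of windows) occurred in these 5 sequences. The sequence of Tgfa, which is not printed and whose start was not found in a Gencode transcript, held no TATA box, 2 Sp1 boxes, 1 SMAD box and 19 CpG, so the TATA box was not shared by all ligands with few or no reads. A match or its absence is a description of the sequence only.

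Levels of different genes were compared as normalized CPM per kb of exonic length. In the vehicle group, Ereg stood at 11.0 ± 1.27 (mean ± SD, n = 2) and Erbb2 at 10.2 ± 0.0553 CPM per kb, and their libraries overlapped. Hbegf at 3.63 ± 0.515 and Nrg1 at 3.51 ± 0.290 CPM per kb came next and overlapped too, followed by Btc at 2.21 ± 0.645. The other members with reads were far lower. Areg stood at 0.315 ± 0.0815, Epgn at 0.175 ± 0.107, Egfr at 0.0775 ± 0.0468 and Erbb3 at 0.0762 ± 0.0604 CPM per kb, and in this order Epgn overlapped with Egfr and Egfr with Erbb3. With TGF-β1 + DMSO, Hbegf at 30.5 ± 2.50 CPM per kb stood above Ereg at 16.7 ± 2.83 and Erbb2 at 8.87 ± 1.32, and none of these overlapped. Btc at 3.88 ± 0.105 then stood above Nrg1 at 2.35 ± 0.0402. The order of these 5 genes with TGF-β1 + BI6727 was the same, at 28.4 ± 5.20 for Hbegf, 14.6 ± 2.07 for Ereg, 8.24 ± 0.0788 for Erbb2, 4.47 ± 0.148 for Btc and 2.13 ± 0.331 CPM per kb for Nrg1. The exonic length is that of all transcripts of a gene together, so a level per kb is too low for a gene whose cells use a short transcript.

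The make-up of the ligand pool differed between vehicle and both groups with TGF-β1. Ereg made up 52.0% and 53.6% of the summed ligand level in the vehicle libraries, and Hbegf 16.8% and 18.0%. With TGF-β1 + DMSO, Hbegf made up 56.8% and 56.3% and Ereg 29.2% and 32.7%, so the groups did not overlap for either gene. The shares with TGF-β1 + BI6727 were 54.9% and 57.4% for Hbegf and 29.2% and 28.8% for Ereg. Nrg1, the member that binds ERBB3, made up 19.1% and 14.8% of the ligand level with vehicle, 4.70% and 4.04% with TGF-β1 + DMSO, and 4.22% and 4.24% with TGF-β1 + BI6727. The summed ligand level was 19.5 and 22.2 CPM per kb with vehicle, 50.5 and 57.3 with TGF-β1 + DMSO, and 45.0 and 55.9 with TGF-β1 + BI6727. Without Hbegf, these sums were 16.2 and 18.2, 21.8 and 25.0, and 20.3 and 23.8 CPM per kb, so most of the difference in the sum was Hbegf. Erbb2 made up between 96.5% and 99.2% of the receptor level in every library. The receptor sum was 10.2 and 10.4 CPM per kb with vehicle, 10.0 and 8.13 with TGF-β1 + DMSO, and 8.36 and 8.59 with TGF-β1 + BI6727. These shares and sums are descriptions, with no test.

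**Figure D1:**
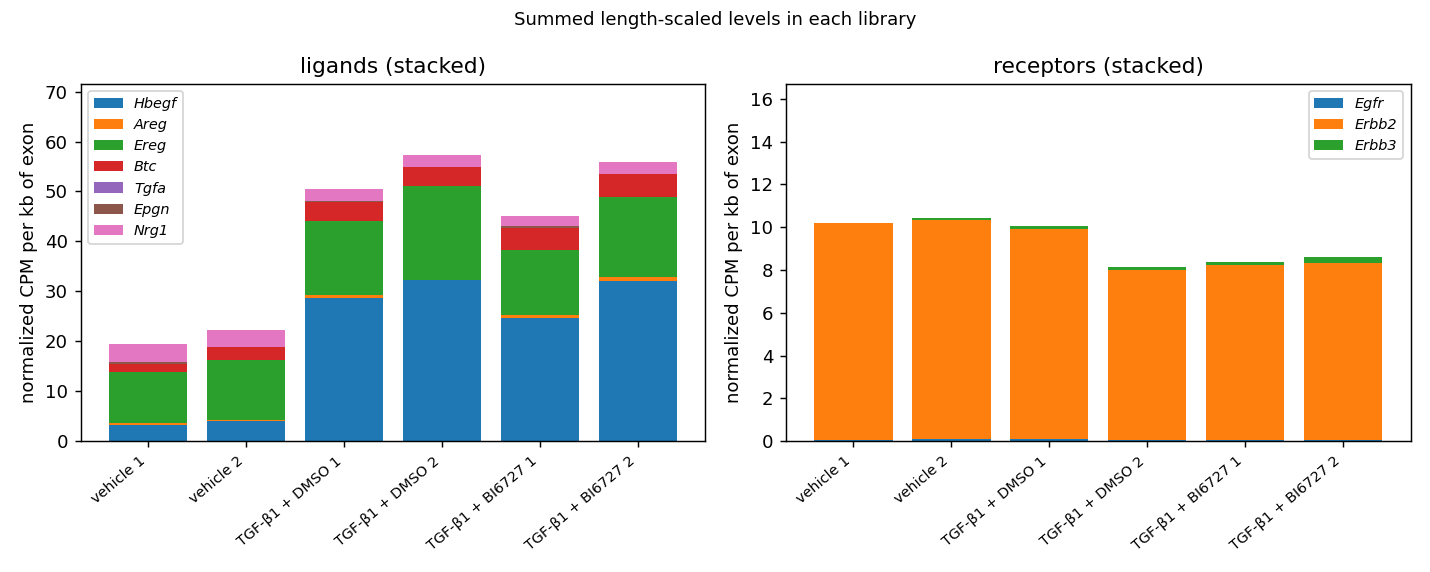
Summed level of the 7 ligands (left) and the 3 receptors (right) in each of the 6 libraries, in normalized CPM per kb of exon, with each gene stacked in its own colour and both axes starting at 0. Hbegf makes up 16.8% and 18.0% of the ligand level in the vehicle libraries and between 54.9% and 57.4% in the 4 libraries with TGF-β1, and Erbb2 makes up nearly the whole receptor level in every library.

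To ask how TGF-β1 acts on the family, TGF-β1 + DMSO was compared with vehicle. Of the 9 tested members, 1 rose and none fell, where 2.3% of all genes tested rose and 2.72% fell. At an unadjusted p-value below 0.05, which 30.5% of all genes tested had, 3 members were higher and 1 was lower, and DESeq2 also called 1 higher and 0 lower. The median log2 fold change of the 9 was 0.08, against a median of -0.00088 over all genes tested. The 4 libraries of the 2 groups did not overlap in 6 of the 9 members, and in 56.4% of all genes tested. Acta2, a gene known to respond to TGF-β, rose by 2.31 on the log2 scale in the same comparison.

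Hbegf (ENSMUSG00000024486.5, chromosome 18, 36504929 to 36515805, minus strand) had 154 and 212 reads in the vehicle libraries, 1431 and 1621 with TGF-β1 + DMSO, and 1067 and 1862 with TGF-β1 + BI6727. In normalized CPM this was 7.75 and 9.48, then 68.1 and 76.5, then 58.6 and 76.1. Every library with TGF-β1 was far above both vehicle libraries. Between TGF-β1 + DMSO and vehicle the log2 fold change was 3.07 (SE 0.18, edgeR adjusted p = 6.39e-06), with a 95% interval of the fold from 6.36 to 11.0. Without replicate 1 of the TGF-β1 + DMSO group it was 3.14, and without replicate 2 it was 3.00. Across the 15 alternative settings it stayed between 2.92 and 3.22 and was called in each, with adjusted p-values of at most 0.00171. No exon of another gene overlaps Hbegf, and none of its 50-base windows was found in another gene.

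The genes whose pattern over the 6 libraries lay nearest to that of Hbegf, of 9707 with an average of at least 10 CPM, were Tcim, Il11 and Pmepa1. The root mean square difference of their centred log2 CPM from Hbegf was 0.133, 0.149 and 0.168. Il11, a cytokine, stood at 16.2 and 15.3 CPM with vehicle, 108 and 133 with TGF-β1 + DMSO, and 105 and 116 with TGF-β1 + BI6727. These distances are descriptions of 6 libraries.

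Ereg (ENSMUSG00000029377.5) stood at 41.8 and 49.2 CPM with vehicle and at 60.9 and 77.4 CPM with TGF-β1 + DMSO, from between 830 and 1639 reads a library. The groups did not overlap. The difference was 0.60 on the log2 scale (SE 0.16, edgeR adjusted p = 0.0316), a fold of 1.52, which is below both limits for a call. It was 0.76 without replicate 1 of the TGF-β1 + DMSO group and 0.44 without replicate 2.

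Btc (ENSMUSG00000082361.6), at the other end of the chromosome 5 cluster, stood at 7.90 and 12.0 CPM with vehicle and at 17.9 and 17.2 CPM with TGF-β1 + DMSO. Both vehicle libraries were lower, and they were also the further apart. The log2 fold change was 0.81 (SE 0.20, edgeR adjusted p = 0.0224), a fold of 1.75, and it too missed both limits. Without the TGF-β1 + DMSO replicates in turn it was 0.77 and 0.85, but it moved further with the vehicle libraries, to 0.54 without replicate 1 of vehicle and 1.14 without replicate 2.

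Nrg1 (ENSMUSG00000062991.7, chromosome 8, 31814551 to 32884029, minus strand), the neuregulin of the list, went the other way. It stood at 38.4 and 34.2 CPM with vehicle and at 24.6 and 24.0 CPM with TGF-β1 + DMSO, from 763, 764, 516 and 508 reads, with no overlap. The log2 fold change was -0.58 (SE 0.15, edgeR adjusted p = 0.0281). Nrg1 is a long gene, and once the trend of each library on gene length was removed the value was -0.39, with an adjusted p of 0.079 by the same test. Without replicate 1 and without replicate 2 of the TGF-β1 + DMSO group the log2 fold change was -0.60 and -0.54. The exons of Gm26578 cover 4.66% of its exonic length.

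The remaining ligands had almost no reads. Areg (ENSMUSG00000029378.5) had 9 and 7 reads with vehicle, 14 and 3 with TGF-β1 + DMSO, and 11 and 23 with TGF-β1 + BI6727. Epgn (ENSMUSG00000035020.11) had 9 and 4, then 8 and 2, then 14 and 2 reads. In both genes the replicates of a group differed by as much as the groups, and the log2 fold changes of 0.08 (SE 0.81) for Areg and -0.39 (SE 1.18) for Epgn carry wide errors. The intervals of the fold ran from 0.302 to 3.71 for Areg and from 0.123 to 4.74 for Epgn, so differences inside them were not detectable at this depth. Without replicate 1 and without replicate 2 of the TGF-β1 + DMSO group, Areg was at -1.40 and 0.82 and Epgn at -1.67 and 0.30. Tgfa (ENSMUSG00000029999.14, chromosome 6, 86195223 to 86275719, plus strand) had 0 reads in all 6 libraries, which allows a level of up to 0.163 CPM in the shallowest and 0.123 CPM in the deepest.

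Among the receptors, Erbb2 (ENSMUSG00000062312.5, chromosome 11, 98412470 to 98437716, plus strand) stood at 52.8 and 53.2 CPM with vehicle, 51.1 and 41.4 with TGF-β1 + DMSO, and 42.6 and 43.2 with TGF-β1 + BI6727. The vehicle libraries were the highest, though replicate 1 of the TGF-β1 + DMSO group lay close to them. The log2 fold change of TGF-β1 + DMSO over vehicle was -0.20 (SE 0.13, edgeR adjusted p = 0.357), with an interval of the fold from 0.708 to 1.07. It was -0.36 without replicate 1 of the TGF-β1 + DMSO group and -0.036 without replicate 2, so its size rested on which of them was kept.

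Egfr (ENSMUSG00000020122.16, chromosome 11, 16752203 to 16918158, plus strand), the receptor that most of these ligands bind, had 10 and 28 reads with vehicle, 27 and 12 with TGF-β1 + DMSO, and 6 and 15 with TGF-β1 + BI6727. All 6 libraries lay between 0.330 and 1.29 CPM, above the floor but low, and the groups overlapped. The log2 fold change of 0.06 (SE 0.64) with TGF-β1 + DMSO had an interval of the fold from 0.388 to 2.82, and was -0.64 and 0.55 without replicate 1 and without replicate 2 of that group. With so few reads its pattern over the libraries is poorly resolved: the genes nearest to it, Mid2, Kmt2d and Epg5, lay at root mean square differences of 0.403, 0.414 and 0.425, further off than those nearest to Hbegf.

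Erbb3 (ENSMUSG00000018166.8, chromosome 10, 128567523 to 128589652, minus strand) had 4 and 16 reads with vehicle, 16 and 18 with TGF-β1 + DMSO, and 16 and 36 with TGF-β1 + BI6727. The vehicle libraries at 0.201 and 0.716 CPM lay below the TGF-β1 + DMSO libraries at 0.762 and 0.850 CPM by a margin smaller than the gap within vehicle. The log2 fold change was 0.78 (SE 0.64, edgeR adjusted p = 0.457), and it was 0.16 without replicate 1 of vehicle and 1.97 without replicate 2. Without the TGF-β1 + DMSO replicates in turn it was 0.85 and 0.72. A change of this size was thus within the error at this depth.

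**Figure D2:**
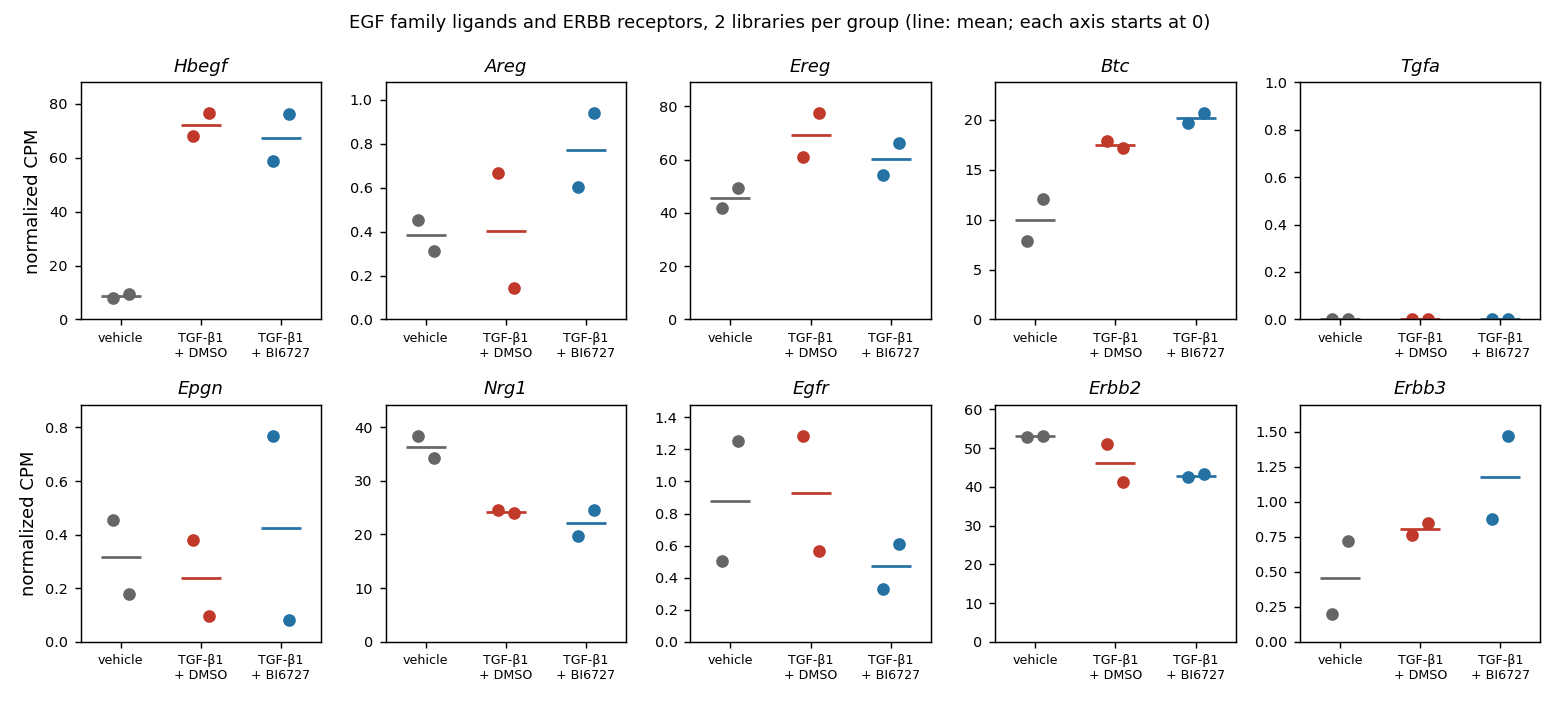
Normalized CPM of the 10 genes in each library (points) with the mean of each group (lines), 2 libraries per group, each panel on its own axis that starts at 0. Hbegf lies at 7.75 and 9.48 CPM in the vehicle libraries and between 58.6 and 76.5 CPM in the 4 libraries with TGF-β1, Nrg1 is highest with vehicle, and the panels of Areg, Epgn, Egfr and Erbb3 stay below 1.5 CPM.

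To ask what differs with the PLK1 inhibitor under TGF-β1, TGF-β1 + BI6727 was compared with TGF-β1 + DMSO. No group received BI6727 without TGF-β1, so an altered response to TGF-β1 and an effect of BI6727 itself cannot be told apart. Of the 9 tested members, edgeR called 0 higher and 0 lower, where 0.0112% of all genes tested were called. No member had an unadjusted p-value below 0.05, against 6.57% of all genes tested, and DESeq2 called none. The median log2 fold change of the 9 was -0.10, and that of all genes tested was -0.0033. The groups did not overlap in 2 of the 9 members, Btc and Erbb3, both higher, and in 34.6% of all genes tested.

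For the members with many reads, the intervals of the fold of TGF-β1 + BI6727 over TGF-β1 + DMSO were narrow. That of Hbegf, the ligand that rose with TGF-β1, was 0.730 to 1.19 around a log2 fold change of -0.10 (SE 0.16, edgeR adjusted p = 0.939). Ereg was at 0.681 to 1.12, Btc at 0.853 to 1.56, Nrg1 at 0.719 to 1.16 and Erbb2 at 0.754 to 1.14. A halving or doubling of these 5 genes lies outside the intervals, while smaller differences lie within them. These intervals may be too short, since the fit shares its spread over the groups and the TGF-β1 + DMSO replicates stood further apart. The intervals of the low members were wide: 0.183 to 1.50 for Egfr, 0.589 to 3.67 for Erbb3, 0.591 to 6.22 for Areg and 0.282 to 10.3 for Epgn.

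The third comparison, of TGF-β1 + BI6727 with vehicle, shares its libraries with the other comparisons. Here 2 of the 9 members rose and none fell, where 2.05% of all genes tested rose and 3.13% fell, and DESeq2 gave the same counts. At an unadjusted p-value below 0.05, which 30.6% of all genes tested had, 3 members were higher and 2 were lower. The groups did not overlap in 7 of the 9 members and in 65.7% of all genes tested, and the median log2 fold change was 0.41 for the members and 0.013 for all genes tested.

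Hbegf again rose, by 2.96 on the log2 scale (SE 0.18, edgeR adjusted p = 6.31e-06), a fold of 7.80. Btc, at 7.90 and 12.0 CPM with vehicle and 19.7 and 20.7 CPM with TGF-β1 + BI6727, rose by 1.02 on the log2 scale (SE 0.20, edgeR adjusted p = 0.00713). Its fold of 2.02 was just over the limit of 2. The call of Btc was lost without any single vehicle or BI6727 library, at adjusted p-values of 0.0116 to 0.105, and with the study's filter on low counts, at 0.0117. Nrg1 stood at 19.7 and 24.5 CPM, below both vehicle libraries, with a log2 fold change of -0.71 (SE 0.15, edgeR adjusted p = 0.0105), and its fold stayed under 2. Ereg at 54.2 and 66.3 CPM had a log2 fold change of 0.41 (adjusted p = 0.121 by the same test).

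**Figure D3:**
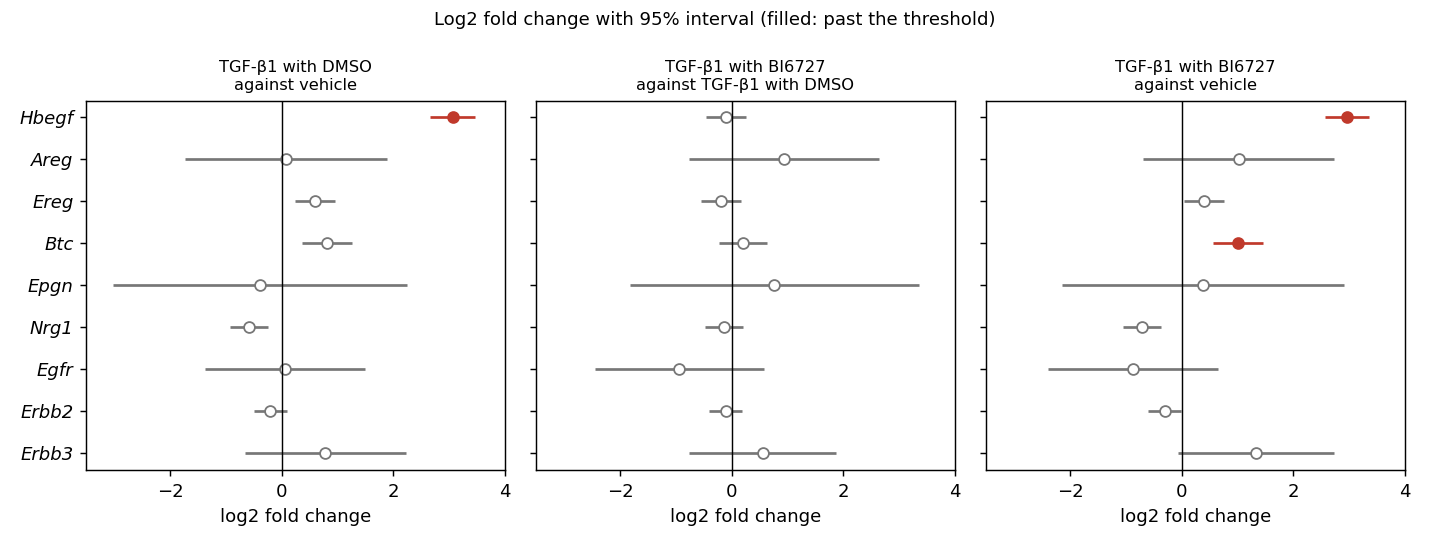
Log2 fold change of the 9 tested members in the 3 comparisons, with bars for the 95% interval from edgeR's fit of 2 libraries per group and filled points for genes past an adjusted p-value of 0.01 and a fold of 2. Hbegf stands at 3.07 and 2.96 against vehicle and at -0.10 between the 2 groups with TGF-β1, and the intervals of Areg, Epgn, Egfr and Erbb3 are the widest.

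The other genes of the family added little signal. Of Egf, Nrg2, Nrg3, Nrg4 and Erbb4, the last of which is the remaining ERBB receptor, Nrg2, Nrg3 and Erbb4 had 0 reads in all 6 libraries. Egf, which gives the family its name, had between 10 and 28 reads a library and a log2 fold change of -0.73 (SE 0.54) with TGF-β1 + DMSO. Nrg4 had between 1 and 10 reads and a value of 0.49 (SE 1.11). Neither passed the test in any of the 3 comparisons. Exons of other genes cover 9.82% of the exonic length of Egf and 8.97% of that of Nrg4, and reads in those stretches cannot be assigned.

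Among 11 genes that cut or guide the cutting of these ligands, 1 rose and none fell with TGF-β1 + DMSO, where 2.3% of all genes tested rose and 2.72% fell, and their median log2 fold change was -0.13. At an unadjusted p-value below 0.05, 4 were higher and 4 lower, against 30.5% of all genes tested in either direction, and DESeq2 called the same counts as edgeR. Adam12 (chromosome 7, 133883199 to 134232146, minus strand), a metalloprotease that can release HB-EGF, had 67 and 87 reads with vehicle, 1347 and 868 with TGF-β1 + DMSO, and 1011 and 1234 with TGF-β1 + BI6727. It stood at 3.37 and 3.89 CPM, then at 64.1 and 41.0, then at 55.6 and 50.4, so every library with TGF-β1 was above vehicle. Its log2 fold change was 3.85 (SE 0.24, edgeR adjusted p = 7.92e-06), and across the 15 alternatives it stayed between 3.48 and 4.15, the values without replicate 1 and without replicate 2 of the TGF-β1 + DMSO group, and was called in each. Of its 50-base windows, 3.24% occur in other genes. Without a call in this fit, Adam9 had a log2 fold change of -0.98 (edgeR adjusted p = 7.67e-04) and Rhbdf1 one of 0.83 (edgeR adjusted p = 0.00214). Adam17, the protease best known for releasing these ligands, stood at 90.9 and 93.3 CPM with vehicle and 58.5 and 46.0 with TGF-β1 + DMSO. Its log2 fold change of -0.82 (edgeR adjusted p = 0.00506) was within the fold limit. It was -1.01, and called, without replicate 1 of the TGF-β1 + DMSO group, and -0.64 without replicate 2.

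Genes that hold back or turn over the receptors did not pass the limits in any direction by edgeR or DESeq2 with TGF-β1 + DMSO. By edgeR, 2.3% of all genes tested rose and 2.72% fell. Of 12 listed, 11 were tested, with a median log2 fold change of 0.25, and 4 were higher and 2 lower at an unadjusted p-value below 0.05, which 30.5% of all genes tested had. The 3 with the largest values were Stam at 0.79 (edgeR adjusted p = 0.00151), Socs5 at -0.68 (0.00282) and Cblb at 0.60 (0.0789). Without replicate 1 and without replicate 2 of the TGF-β1 + DMSO group, Stam was at 0.84 and 0.74, Socs5 at -0.75 and -0.59, and Cblb at 0.25 and 0.89. Stam is a part of the endosomal sorting of receptors, Socs5 a suppressor of cytokine and EGFR signalling, and Cblb a ubiquitin ligase for receptor tyrosine kinases. Hgs could not be tested, since 2 overlapping entries of the annotation share its exons and together held 1 read.

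Of 18 adaptors and relay genes, none rose and 1 fell with TGF-β1 + DMSO, beside the 2.3% and 2.72% of all genes tested, with a median log2 fold change of -0.05. Before adjustment, 3 were higher and 5 lower at a p-value below 0.05, beside 30.5% of all genes tested, and DESeq2 called the same counts as edgeR. The gene that fell was Pik3r1 (chromosome 13, 101680563 to 101768217, minus strand), which codes for the p85 regulatory subunits of PI3K. It stood at 130 and 132 CPM with vehicle, 46.3 and 32.3 with TGF-β1 + DMSO, and 41.2 and 41.9 with TGF-β1 + BI6727, so both vehicle libraries were far above the rest. Its log2 fold change was -1.74 (SE 0.16, edgeR adjusted p = 9.15e-05), between -2.02 and -1.48 across the 15 alternatives, the values without replicate 1 and without replicate 2 of the TGF-β1 + DMSO group, and it was called in each. Against vehicle it also fell with TGF-β1 + BI6727, by 1.66, but that call was lost without either BI6727 library, at adjusted p-values of 0.0150 and 0.0133 by the same test.

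Gab2 (chromosome 7, 97081586 to 97308946, plus strand), a docking protein for PI3K and SHP2, stood at 8.16 and 8.86 CPM with vehicle, 18.8 and 14.0 with TGF-β1 + DMSO, and 19.8 and 18.1 with TGF-β1 + BI6727. The groups with TGF-β1 lay above vehicle. It rose against vehicle with TGF-β1 + BI6727, by 1.15 on the log2 scale (edgeR adjusted p = 0.00234), and was at 0.94 (adjusted p = 0.00756 by edgeR), under a fold of 2, with TGF-β1 + DMSO. The latter was 0.71 without replicate 1 of the TGF-β1 + DMSO group and 1.16, and called, without replicate 2. The call with TGF-β1 + BI6727 was lost without any single vehicle or BI6727 library, at adjusted p-values of 0.0393 to 0.0572 by the same test. With TGF-β1 + BI6727 against vehicle, 2 of the 42 tested genes on these lists and of the rest of the family rose and 1 fell. Of all genes tested, 2.05% rose and 3.13% fell. The list genes called there besides Gab2 were Adam12, which rose, and Pik3r1, which fell.

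Between TGF-β1 + BI6727 and TGF-β1 + DMSO, 0 of the 42 tested genes on these lists and of the rest of the family were called by edgeR or by DESeq2. Of all genes tested, edgeR called 0.0112%. At an unadjusted p-value below 0.05, which 6.57% of all genes tested had, 1 gene was lower. This was Rhbdf1, at a log2 fold change of -0.32. Adam12 had a log2 fold change of 0.01, with an interval of the fold from 0.745 to 1.36, and Pik3r1 had 0.08, with an interval from 0.823 to 1.36.

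**Figure D4:**
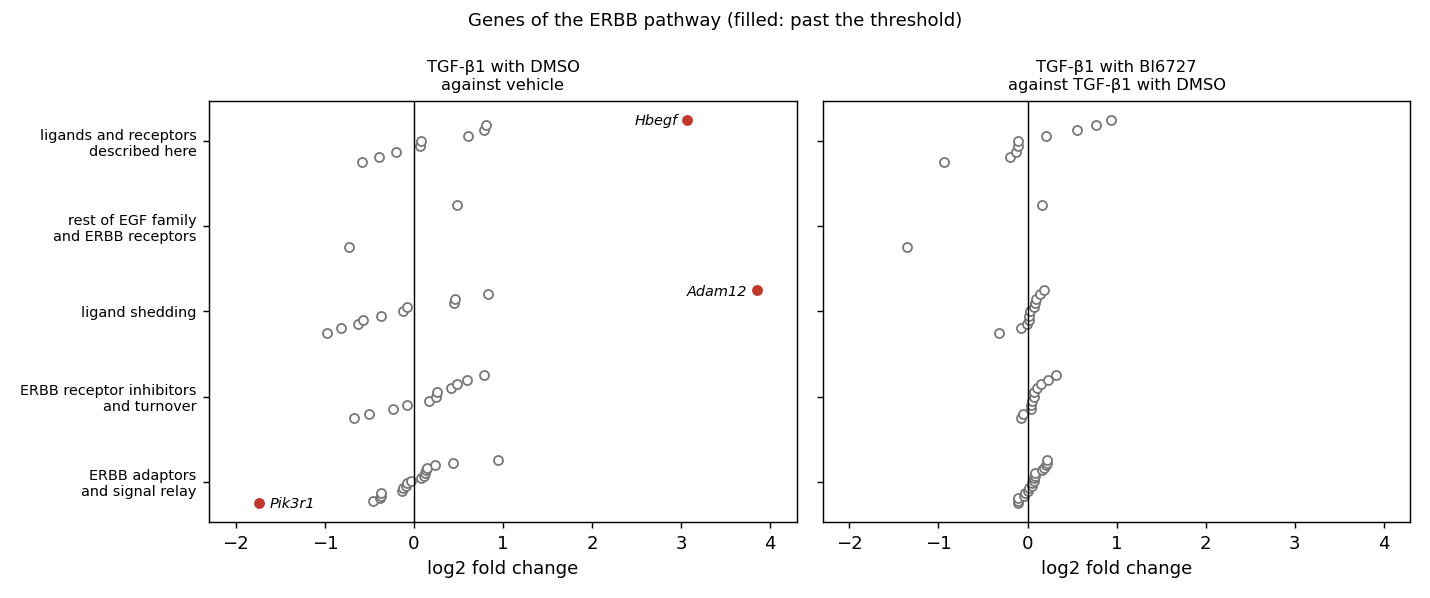
Log2 fold change of each tested gene of the family, of its shedding, of receptor inhibitors and turnover and of adaptors and relay, with TGF-β1 + DMSO against vehicle (left) and TGF-β1 + BI6727 against TGF-β1 + DMSO (right), where each point is a gene and filled points are past an adjusted p-value of 0.01 and a fold of 2. Hbegf at 3.07, Adam12 at 3.85 and Pik3r1 at -1.74 stand apart on the left, and no point is filled on the right.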

How the data were processed

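Reads of 50 bases from single-end sequencing of RNA depleted of rRNA (BGISEQ-500) were, per the authors' methods, mapped to mm10 with Subjunc and counted on Gencode M20 genes with featureCounts (Subread 1.6.4). The authors deposited raw counts per gene, without normalization, for all 6 libraries; the strand setting was not given in the sources used here. Samples were grouped by their labels. The submitters' processing notes also name DESeq2 1.22.2 and R 3.6.1.

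Genes with at least 10 counts in total were tested, a filter blind to the groups, since the study's filter (at least 10 CPM in more than 3 samples) leaves 9518 genes and 5 of the 10 members. Groups were compared with edgeR 4.0.16 in R 4.3.3 (quasi-likelihood test, TMM, one fit of 6 libraries, 3 residual degrees of freedom, no covariate). The p-values and intervals also use prior degrees of freedom that edgeR borrows across genes. The fit shares one spread over the 3 groups, although the TGF-β1 + DMSO replicates stood further apart. Intervals of comparisons with that group may therefore be too short. The SE is the size of the log2 fold change divided by the square root of F, and CPM are relative to TMM-scaled totals. No permutation test is given, since the smallest p it allows with 2 libraries in each group is 0.333. Of the gene IDs, 54723 matched a symbol. Sequences are from RefSeq, and shared windows were counted in Gencode M21 transcripts.

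The members and lists were chosen with earlier results of these data known. The genes named are all members, the rest of the family, list genes called in any comparison (for a list with none, the 3 with the largest change with TGF-β1 + DMSO), and the 3 genes nearest in pattern to Hbegf and to Egfr. Alternatives were DESeq2 1.42.0, its size factors, other filters and thresholds, only the 2 groups compared, a replicate block, offsets for gene length (lowess of span 0.3) and each library left out. A crossed replicate block was added after the data were seen. Same-numbered replicates did not deviate together, so the numbers were not taken as pairs. The test was checked on simulated counts. Adam17 and the shedding genes named beside it are list genes named after their values were seen. So are the markers Pdgfra, Pdgfrb, Col1a2, Krt14, Krt8, Cldn4 and Cdh1, and Acta2. Intervals are those of the fit and include the spread between libraries, while the floor of 3 counts covers counting error only.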

Additional observations from a re-analysis of the deposited data

How the results depend on the processing

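The call of Hbegf against vehicle held in all 15 alternatives, at log2 fold changes of 2.92 to 3.22 with TGF-β1 + DMSO and 2.76 to 3.14 with TGF-β1 + BI6727. The alternative with the study's filter kept Hbegf through its libraries with TGF-β1, since both vehicle libraries were under 10 CPM. An adjusted p-value below 0.05 with no fold minimum moved the members called. With TGF-β1 + DMSO they went from 1 higher and 0 lower to 3 and 1. Those lower with TGF-β1 + BI6727 against vehicle went from 0 to 1. Of all 17936 genes tested, 1371 were then higher and 1509 lower with TGF-β1 + DMSO. With TGF-β1 + BI6727 against vehicle, 1691 were then lower. The 2 members higher in that comparison became 1 with the study's filter and 1 to 2 when a replicate was left out. Btc, the member lost, then had an adjusted p-value of 0.0117 with the study's filter.

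Over all genes, 413 were higher and 488 lower with TGF-β1 + DMSO than with vehicle. The study's filter gave 244 and 241, the fit of only the 2 groups 275 and 318, an adjusted p-value below 0.05 with no fold minimum 1371 and 1509, one below 0.01 with no fold minimum 690 and 773, and leaving out a replicate 150 to 584 and 168 to 870. Against vehicle, TGF-β1 + BI6727 had 367 higher and 562 lower, and these settings gave 223 and 282 (study's filter), 1379 and 1691 (below 0.05), 672 and 896 (below 0.01), and 132 to 491 and 147 to 733 (a replicate left out). Between the groups with TGF-β1, 0 were higher and 2 lower. The number higher was 6 with no filter and 0 to 65 with a replicate left out, the most without replicate 1 of TGF-β1 + DMSO. The number lower was 15 with DESeq2, 0 with the study's filter, 0 with filterByExpr, 41 with no filter, 0 with only the 2 groups, 13 with length offsets and 0 to 37 with a replicate left out. The causes were not tested beyond the fewer genes or libraries that these settings hold.

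The replicate numbers did not pair the samples: the deviations of same-numbered replicates correlated at -0.10, 0.041 and -0.23 across genes for vehicle with DMSO, vehicle with BI6727 and DMSO with BI6727. A replicate block gave 411 higher and 493 lower genes, 0 and 0, and 358 and 548 in the 3 comparisons, and Hbegf stayed at 3.07. With the numbers crossed, a choice made after the data were seen, the counts were 440 and 519, 0 and 4, and 390 and 595.

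Signs turned only in values that were far from a call. Areg with TGF-β1 + DMSO was -0.071 with the crossed block and -1.40 to 0.82 with a replicate left out. With a replicate left out, Epgn ranged from -1.67 to 0.39, from -1.48 to 2.04 and from -1.87 to 1.28 in TGF-β1 + DMSO against vehicle, BI6727 against DMSO and BI6727 against vehicle, Egfr from -0.64 to 0.87 in the first, and Hbegf from -0.30 to 0.073, Nrg1 from -0.31 to 0.014 and Erbb2 from -0.28 to 0.053 between BI6727 and DMSO. Depth limits Areg, Epgn, Egfr and Erbb3, which had at most 36 reads in a library, and 2 libraries per group limit every comparison.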
